A study of Urocitellus parryii with 3 samples.

Results

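Star strands are the miRNA entries whose name ends with an asterisk, the mark that older releases of the miRNA catalogue gave to the arm of a hairpin thought to be the minor product. Of the 567 mouse miRNA entries on the array, 114 carry it. The 100 entries described here are all of these except miR-378* and 13 entries of the imprinted cluster on mouse chromosome 12 (Dlk1-Dio3 region). The samples were liver RNA of a hibernator, the arctic ground squirrel (Urocitellus parryii), at 3 stages: late torpor, when the animals are cold and inactive, early arousal, when they rewarm, and post-reproduction, in the active part of the year. For each stage, equal amounts of RNA from animals of that stage were combined and the pool was put on 1 array. Stage differences therefore have no replicate check, and having 1 array per stage limits their precision. Genotype, age and number of animals per pool are not given in the sources used here. The probes were designed for mouse miRNAs, and whether the squirrel's own sequences match them was not checked. The study's comparisons ask how the miRNAs of liver differ between the stages. For star strands, a second comparison sets each star entry beside the entry named as its other arm. For 14 star entries that entry could not be placed in the same hairpin.

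A miRNA hairpin is cut by Drosha in the nucleus and by Dicer in the cytoplasm, which leaves a duplex of 2 short strands. One strand, the guide, is loaded into an Argonaute protein and represses mRNAs. The other, the passenger or star strand, is in most cases released and degraded. For some hairpins both strands are loaded, and which of them dominates can differ between tissues. Both arms come from the same transcript, so a change in transcription alone would move them together, while strand loading and strand decay act after the duplex is made. Catalogue releases that followed dropped the asterisk and named arms by their position, 5p or 3p, in the hairpin.

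As a check of the tissue, all 4 hepatocyte miRNAs of a marker list (miR-122, miR-192, miR-194, miR-148a) were detected on every array, and the brightest probe of miR-122 had 51255 intensity units in early arousal, 59409 units in late torpor and 49887 units in post-reproduction. Markers of blood cells were measured too. The 3 red blood cell miRNAs (miR-144, miR-451, miR-486) were measured, with summed intensities of 1954, 3223 and 1549 in the same order, and 4 of 5 leukocyte miRNAs were measured, with sums of 385, 553 and 426. miR-155 of the leukocyte list was detected on no array. Of 4 miRNAs on a smooth muscle and stellate cell list, 3 were on the array and measured, with sums of 84.2, 85.4 and 95.3. The 2 endothelial entries were measured, with sums of 932, 996 and 891. Of the 3 miRNAs on the neural list, miR-9 and miR-124 were detected on no array, and miR-128 was measured, with 26.6, 38.6 and 28.0 units in the same order. The part of blood cells in the star strand values was not tested. In these pooled samples, fewer cells of a type and less RNA per cell cannot be told apart.

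Few star strands gave a signal. The scanning program marks each spot that is well above background. Probes with over 50% of such spots were taken as detected, and an entry needed at least 1 detected probe. This held for 11 of the 100 star entries in early arousal, for 12 in late torpor and for 10 in post-reproduction. Over all 567 mouse entries the shares were 26.8%, 27.9% and 25.2%. Over the 94 entries named as other arms of star entries they were 58.5%, 59.6% and 55.3%. In all, 13 star entries were detected on at least 1 array, and 9 had a probe detected on all 3, which is called measured here. Of all mouse entries 135 were measured (23.8%), and of the other arms 52.

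Most star strands were undetected even where their other arm was measured. Of 99 star entries with another arm on the array, 56 had one that was measured, and 47 of these 56 star entries were detected on no array. None of the 7 let-7 star entries was detected, while all 6 of their other arms were. let-7 miRNAs mark differentiated cells. The same held for the 8 star entries of the miR-17 clusters, which promote proliferation (7 of 8 other arms detected), for 5 star entries of the miR-15 and miR-16 group (4 of 5 other arms), and for 4 of the miR-23, miR-24 and miR-27 clusters (3 of 3). All 4 star entries of the epithelial miR-200 family were undetected, and 2 of 4 other arms were detected. Among 6 star entries of miRNAs known from hepatocytes, miR-22* was the one detected, and miR-21*, miR-26b*, miR-101a*, miR-148a* and miR-193* were not, while all 6 other arms were. The groups with more than 1 detected star entry were miR-29 (2 of 3) and miR-30 (2 of 5), beside the 55 entries outside the named groups, of which 8 were detected.

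**Figure D1:**
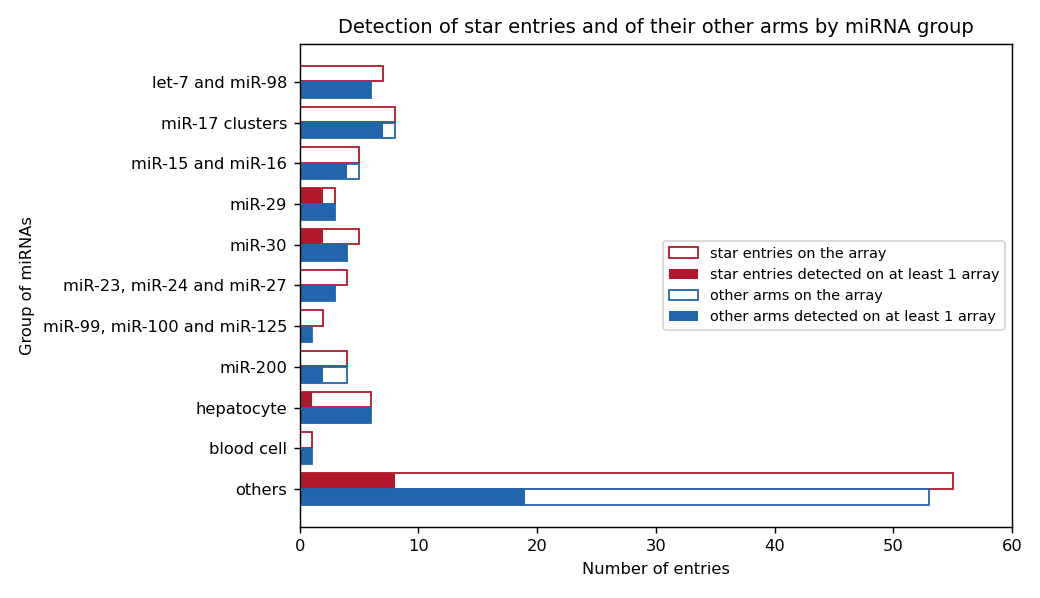
Horizontal bars give the number of star entries (red) and of their other arms (blue) in each group of miRNAs, with outlines for the entries on the array and filled parts for those detected on at least 1 of the 3 arrays. No star entry of the let-7 group (0 of 7) is filled, against 6 of 6 other arms, and the miR-29 and miR-30 groups have 2 filled star entries each.

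The mean intensity of the 87 undetected star entries lay mostly near background. It ran from -2.10 to 5.07 units in early arousal (median -0.50), from -2.38 to 5.66 in late torpor (median -0.17) and from -1.86 to 5.52 in post-reproduction (median -0.17). The median negative control spot had 1.36, 1.69 and 1.21 units in the same order, and 95% of these spots lay below 5.29, 5.25 and 5.31. Of the kept spots of these entries, 0.473%, 0.933% and 0.528% were marked well above background. let-7b* was the highest of them in late torpor and miR-30c-2* on the other arrays. let-7b* in late torpor (5.66) and miR-30c-2* in post-reproduction (5.52) lay above the level that 95% of the control spots stayed below. These are the highest of 87 entry means, each over many spots, while the control level is one of single spots. The measures are unlike, so this does not rate either entry against background. The brightest single probe among the 87 entries had 9.83, 8.13 and 9.91 units in the same order.

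Of 85 star entries that could be placed beside their other arm by the probes' positions, 53 lay on the 3p side of the hairpin and 32 on the 5p side. Among those detected, 8 were 3p and 2 were 5p (miR-22* and miR-29c*). The stretch of miRNA that the longest probe of an entry pairs with spanned 13 to 22 bases over all star entries (median 18), and 15 to 22 in the measured ones (median 18). The measured entries thus covered most of the range of target lengths.

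Viral miRNA entries, whose targets squirrel liver should not contain, show how much signal a probe can give without its target. Of 10 such entries, mghv-miR-M1-2 was the one detected on every array. Its brightest probe had 22.2 units in early arousal, 26.5 units in late torpor and 26.6 units in post-reproduction. miR-140*, miR-22*, miR-30a*, miR-30e*, miR-31*, miR-199b* and miR-29c* had higher intensities than mghv-miR-M1-2 on each array, and the other 6 detected star entries had lower ones. Probes differ in affinity, so the level of 1 viral entry sets no background for another entry.

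**Figure D2:**
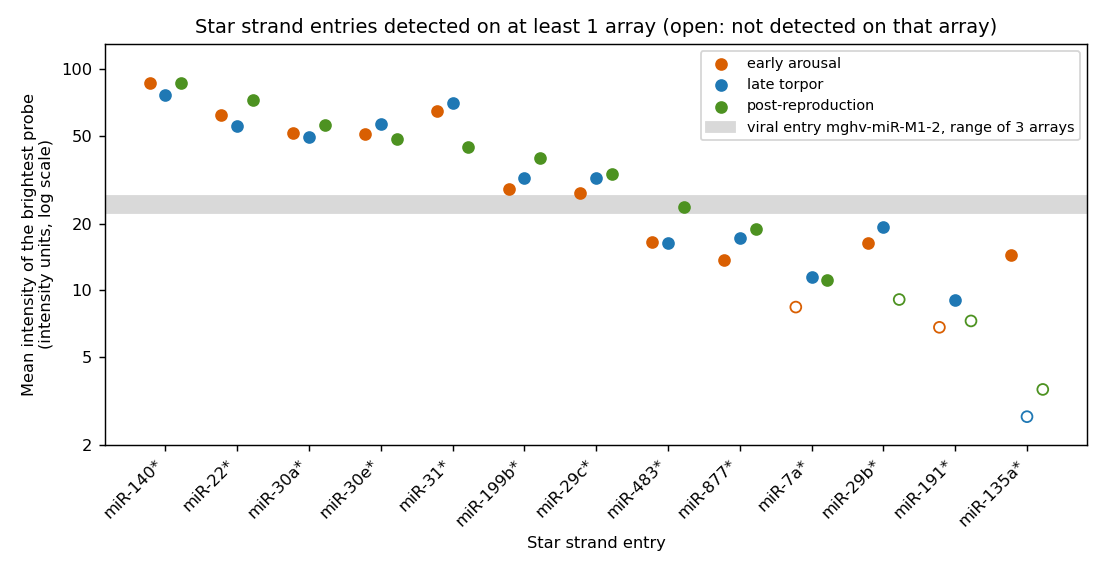
Each column is 1 of the 13 star entries detected on at least 1 array, and points give the mean deposited intensity of its brightest probe on that array (log scale) in early arousal (orange), late torpor (blue) and post-reproduction (green), open where the entry was not detected. The grey band is the range of the viral entry mghv-miR-M1-2, 22.2 to 26.6 units, and 7 entries lie above it on all 3 arrays.

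Stage differences were computed on a log2 scale after scaling, for which the 75th percentile of 250 probes, those detected on every array, was subtracted. A standard error (SE) here comes from the spots of a probe and covers spot spread only. The size rule asked for a log2 difference of 1 or more (2-fold), larger than 2 SE and with one sign in all measured probes. No star entry passed it in any of the 3 comparisons. Over all 135 measured miRNAs 2.22% passed between late torpor and post-reproduction, 3.7% between early arousal and post-reproduction and 2.96% between early arousal and late torpor, so a count of 0 among 9 star entries lies close to the background share. The median log2 difference of the 9 was -0.034, 0.020 and -0.092 in the same order, beside 0.13, 0.062 and -0.094 over all measured miRNAs. Each pair of comparisons shares an array, so the 3 are not independent.

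Among the 9 measured star entries, miR-31* had the largest differences from post-reproduction. miR-31 is best known from epithelial cells and tumours. The probe targets of miR-31* lie on mouse chromosome 4, 88556481 to 88556499 (mm9), on the 3p side of the hairpin. One probe had 64.9 units in early arousal, 70.6 units in late torpor and 44.4 units in post-reproduction. The other had 35.4, 36.7 and 23.1 units. Early arousal and late torpor were thus both high and close to each other, and post-reproduction was low. Before scaling, the highest post-reproduction spots of these probes had 26.9 and 51.4 units, and the lowest in early arousal had 30.6 and 60.9. Such spots are repeats of the same pool on the same array. How many probes of other entries separate in this way was not counted. After scaling, miR-31* was 1.82-fold higher in late torpor than in post-reproduction (95% interval from spots 1.73 to 1.91), a log2 difference of 0.86 ± 0.04 (SE), and it ranked 5 among the 135 measured miRNAs. It was 1.70-fold higher in early arousal (1.62 to 1.79), at 0.77 ± 0.04, again at rank 5. Between early arousal and late torpor the difference was -0.092 ± 0.03, a sign that turned under 4 of 12 alternatives. Both differences from post-reproduction stayed above 0 under the 12 alternatives run. They were as low as 0.44 and 0.39 with normexp, a background correction that adds 50 units to every spot and so shrinks differences of dim entries. With the unsubstituted all-probe scaling, which includes undetected probes, the late torpor difference was 0.47, and with the substituted form the early arousal difference was 0.40.

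The other arm, miR-31, was nearly level. One probe had 186, 188 and 199 units on the early arousal, late torpor and post-reproduction arrays, and the other 83.8, 88.4 and 95.7 units. On the scaled scale miR-31 differed from post-reproduction by 0.089 ± 0.02 in late torpor and by 0.039 ± 0.02 in early arousal. The star minus the other arm was therefore 0.77 ± 0.04 and 0.73 ± 0.04, which is a star-to-arm ratio 1.71-fold (1.62 to 1.80) and 1.66-fold (1.57 to 1.75) that of post-reproduction. A difference between 2 entries on the same arrays does not depend on any scaling that shifts whole arrays. It was 0.78 and 0.77 after quantile normalization and lowest with normexp (0.35 and 0.33). Between early arousal and late torpor the ratio differed by -0.041 ± 0.04.

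miR-30a* and miR-30e* belong to a family that is abundant in differentiated tissues, and both are known for passenger strands that are readily found. They lie on the 3p side, with targets on chromosome 1, 23279159 to 23279175, and chromosome 4, 120445223 to 120445240. Their mature sequences are nearly the same, so cross-hybridisation between the pair is possible and was not tested. The brightest probe of miR-30e* had 50.9 units in early arousal, 56.6 units in late torpor and 48.4 units in post-reproduction. That of miR-30a* had 51.4, 49.2 and 55.8 units. miR-30e* was thus highest in late torpor, where miR-30a* was lowest.

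miR-30e* was 1.37-fold higher in late torpor than in post-reproduction (1.28 to 1.46), at 0.45 ± 0.05, and this stayed above 0 under all 12 alternatives (lowest 0.059, with the unsubstituted all-probe scaling). In early arousal it was at 0.26 ± 0.05, a value that turned negative with strict detection (all spots well above background) and with a scaling over all probes. miR-30a* was at -0.034 ± 0.05 and 0.020 ± 0.04, both within 2 SE of 0. Their other arms showed the same contrast. miR-30e was at 0.58 ± 0.02 and 0.41 ± 0.02, and miR-30a at 0.18 ± 0.02 and 0.22 ± 0.02. The difference of miR-30e* from miR-30a* between late torpor and post-reproduction was 0.48 ± 0.07, and that of miR-30e from miR-30a was 0.40 ± 0.03. Between early arousal and late torpor these were -0.24 ± 0.06 and -0.22 ± 0.03.

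Each miR-30 star lay somewhat below its own arm in both comparisons with post-reproduction. For miR-30a* the star minus the other arm was -0.21 ± 0.05 in late torpor and -0.21 ± 0.04 in early arousal. For miR-30e* it was -0.13 ± 0.05 and -0.15 ± 0.06. All 4 values stayed below 0 under the 12 alternatives. Between early arousal and late torpor neither pair was apart by more than 2 SE (0.0065 ± 0.04 and -0.019 ± 0.05).

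miR-29c*, of a family that represses collagen and other matrix genes, lies on the 5p side (chromosome 1, 196863757 to 196863777). Its brightest probe had 27.5 units in early arousal, 32.0 units in late torpor and 33.5 units in post-reproduction. Early arousal was the low array. The scaled difference between early arousal and late torpor was -0.24 ± 0.07 for miR-29c* and -0.24 ± 0.02 for miR-29c, so star minus arm was 0.0024 ± 0.07. miR-29c* stayed below 0 in this comparison under all 12 alternatives. Against post-reproduction the star was at 0.081 ± 0.06 in late torpor and -0.15 ± 0.07 in early arousal, and the other arm at 0.25 ± 0.02 and 0.0066 ± 0.02. The star's own value turned below 0 under 8 of 12 alternatives in late torpor (lowest -0.31) and above 0 with normexp in early arousal (0.063). Star minus arm was -0.16 ± 0.07 in both, and the early arousal value turned above 0 with normexp (0.068).

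miR-140, known from cartilage and encoded in an intron of the Wwp2 gene, is a hairpin whose star arm is in many tissues the abundant one. miR-140* had 86.4 units in early arousal, 76.7 units in late torpor and 86.6 units in post-reproduction in its brightest probe (chromosome 8, 110075194 to 110075208). Here star and arm differed most in early arousal. miR-140* was at 0.12 ± 0.03 against post-reproduction and 0.18 ± 0.03 against late torpor. miR-140 was at -0.15 ± 0.05 in each of these. Star minus arm was 0.28 ± 0.06 and 0.33 ± 0.06, above 0 under all 12 alternatives (lowest 0.13 and 0.14, both with normexp). The star's own direction was less firm: it turned below 0 under 4 alternatives against post-reproduction and 1 against late torpor. Between late torpor and post-reproduction star minus arm was -0.054 ± 0.05.

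miR-22, one of the brightest miRNAs of liver, showed the same order of star minus arm on a smaller scale. The brightest probe of miR-22* had 62.0 units in early arousal, 55.5 units in late torpor and 72.4 units in post-reproduction (chromosome 11, 75277239 to 75277257, 5p side). In early arousal the star itself was at 0.032 ± 0.04 against post-reproduction, within 2 SE of 0, and the sign turned under 7 of 12 alternatives. Against late torpor it was at 0.18 ± 0.04, turning under 1. Star minus arm was 0.12 ± 0.04 for early arousal against post-reproduction and 0.16 ± 0.04 against late torpor, both above 0 under all 12 alternatives (0.035 with normexp in the latter). It was -0.040 ± 0.03 between late torpor and post-reproduction. The probes of miR-22 itself differed by 0.28 and 0.27 in the first 2 of these comparisons, which is more than either value.

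miR-199b*, from a family of fibroblasts and stellate cells, rested on 1 of 2 probes, with 28.7 units in early arousal, 32.1 units in late torpor and 39.7 units in post-reproduction (chromosome 2, 32174006 to 32174027). Early arousal was the low array. Against post-reproduction miR-199b* was at -0.28 ± 0.06 in early arousal and miR-199b at -0.28 ± 0.02, and star minus arm was -0.0023 ± 0.07. The miR-199b entry is also listed as miR-199a-3p in the files, so it reads more than this hairpin. The star stayed below 0 in this comparison under all 12 alternatives. The 3 measured miRNAs of the smooth muscle and stellate cell list were at -0.013 to 0.062 here. The part of such cells in the value of miR-199b* was not tested.

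**Figure D3:**
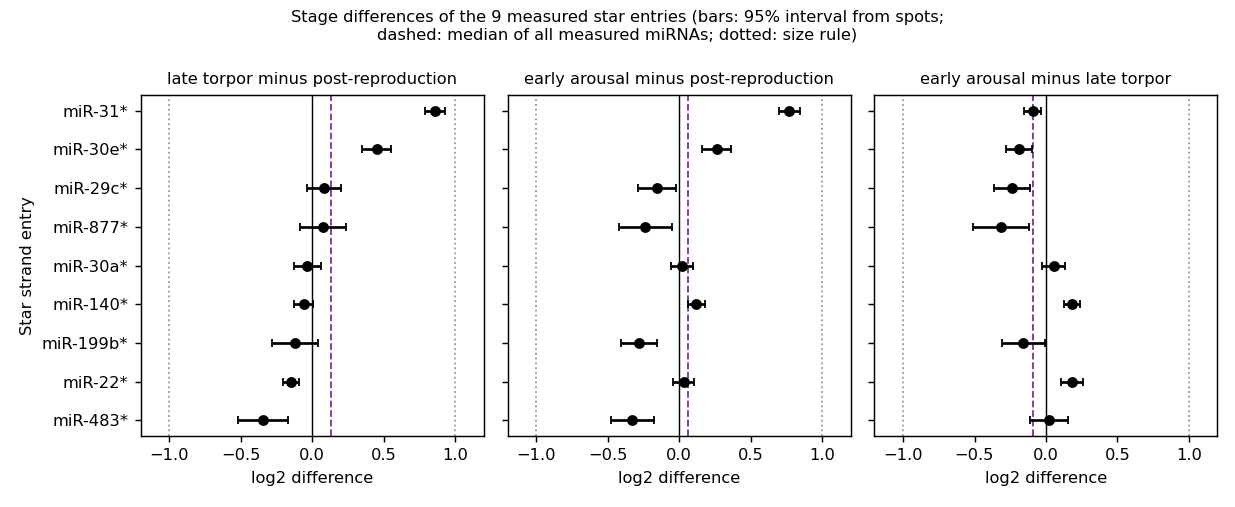
Points give the scaled log2 difference of the 9 measured star entries in each of the 3 comparisons, with bars for the 95% interval from spots, a dashed line at the median of all 135 measured miRNAs and dotted lines at the size rule of 1. miR-31* lies at 0.86 and 0.77 in the comparisons with post-reproduction, and no entry reaches the dotted lines.

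Over the 7 pairs with both arms measured, the median of star minus other arm was -0.097 between late torpor and post-reproduction, -0.0023 between early arousal and post-reproduction and 0.0065 between early arousal and late torpor. No pair was apart by 1 or more. As a reference, 4 other hairpins have both arms measured under the 5p and 3p names (miR-126, miR-142, miR-340 and miR-574), and 0% of them were apart by 1 or more in any comparison. The median size of the difference between arms was 0.13, 0.16 and 0.041 for the star pairs and 0.18, 0.30 and 0.20 for the reference pairs. Star pairs were thus no further apart in the median than pairs of named arms. The reference pair furthest apart was miR-574, at 0.67 in late torpor and 0.69 in early arousal against post-reproduction, beside 0.77 and 0.73 for miR-31*. In late torpor against post-reproduction, 6 of the 7 stars lay below their arm, 3 of them by more than 2 SE (miR-29c*, miR-30a* and miR-30e*). These 6 ranged from -0.21 to -0.040, and miR-31* was the exception. This count moved with the processing: 4 of 7 lay below their arm after quantile normalization, with miR-140* (0.021) and miR-199b* (0.043) above it, and 4 of 7 with normexp, with miR-199b* (0.059) and miR-22* (0.14) above it.

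**Figure D4:**
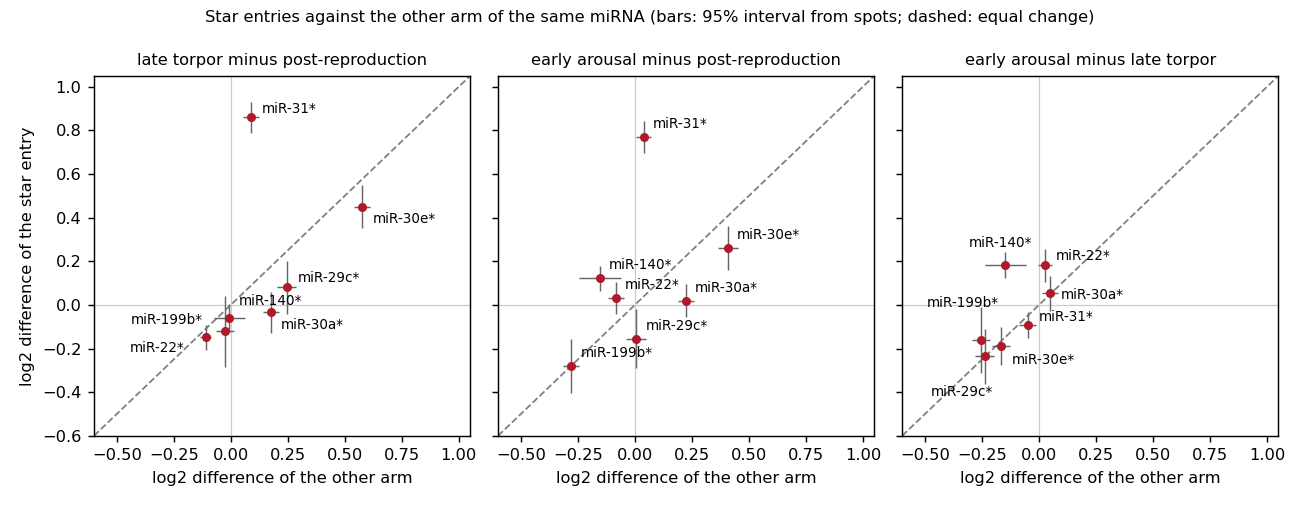
Each point is 1 of 7 pairs, with the log2 difference of the other arm on the horizontal axis and that of the star entry on the vertical axis, bars for 95% intervals from spots and a dashed line of equal change. miR-31* lies far above the line in the 2 comparisons with post-reproduction (0.86 against 0.089 in late torpor) and on it between early arousal and late torpor.

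**Figure D5:**
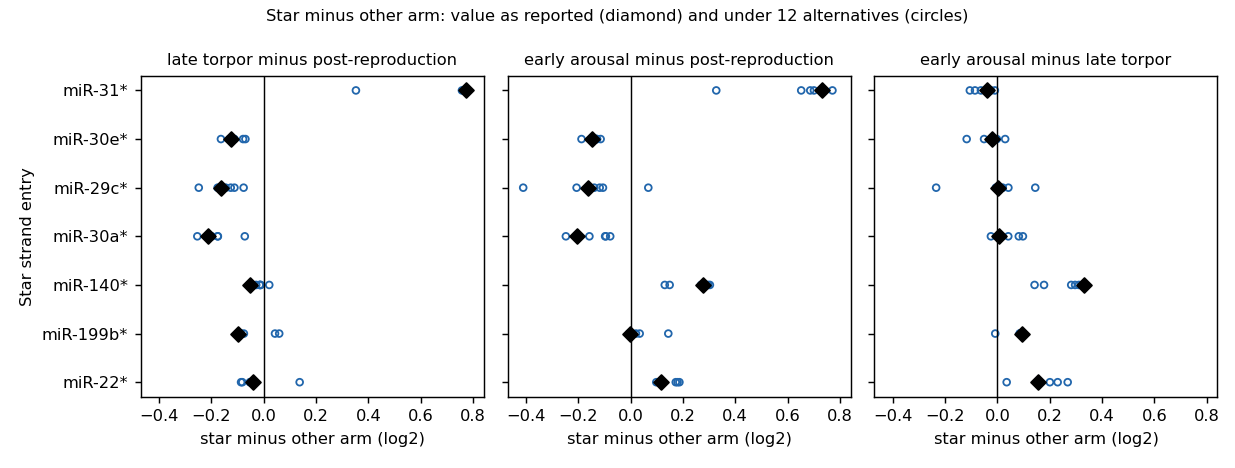
Star minus other arm of the 7 pairs on the log2 scale, as reported (diamonds) and under 12 alternative processings (circles). miR-31* stays above 0 in both comparisons with post-reproduction, with its lowest values at 0.35 and 0.33, and miR-140* does so in both comparisons of early arousal.

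The remaining measured star entries have no measured other arm. miR-483 lies in an intron of Igf2, the gene of a growth factor made in fetal liver, and its star lies on the 3p side (chromosome 7, 149840837 to 149840854). miR-483* rested on 1 of 2 probes. The measured probe had 16.6 units in early arousal, 16.3 units in late torpor and 23.8 units in post-reproduction, so post-reproduction was the high array. Its scaled difference from post-reproduction was -0.35 ± 0.09 in late torpor and -0.33 ± 0.08 in early arousal, both just above 0 with normexp (0.040 and 0.048). The other probe of miR-483*, not detected in early arousal, was at -0.11 and -0.22 in the same order. In early arousal the other arm lay on the opposite side. The brightest probe of miR-483 had 30.1, 10.7 and 5.46 units, and it was at least 3.20-fold higher in early arousal than in post-reproduction, where it was not well above background. This bound sets the bright probe against the higher of its own value and the lowest spot well above background on the dim array, and it was 2.47 at the lowest over the scalings that shift whole arrays. It includes no spot error. The bound of miR-483 for late torpor was 1.12-fold and did not stay above 1 under every scaling, so no direction is given there. The probes of miR-483 pair with 10 to 13 bases, and those of miR-483* with 17 to 18.

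miR-877 is made from a short intron of Abcf1 without Drosha, a type of hairpin called a mirtron. Its star (chromosome 17, 36097676 to 36097692) was measured in 3 of 4 probes, and its other arm was detected on no array. One of these probes had 13.7 units in early arousal, 16.2 units in late torpor and 18.8 units in post-reproduction, and another had 13.1, 15.8 and 15.5 units. Early arousal was the low array in both. It was at -0.31 ± 0.10 in early arousal against late torpor, below 0 under all 12 alternatives, and at -0.24 ± 0.10 against post-reproduction, which turned above 0 with normexp (0.054).

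The 4 other detected star entries were each missing on at least 1 array and had a single detected probe. The probe of miR-29b* (chromosome 6, 31013067 to 31013088) had 16.4 units in early arousal, 19.4 units in late torpor and 9.07 units in post-reproduction, the last not well above background. Against post-reproduction it was higher by at least 2.06-fold (late torpor) and at least 1.67-fold (early arousal), over 5 spots of 1 of its 4 probes, with 1.57 and 1.29 as the lowest bounds over the scalings. The entry named as its other arm, miR-29b, was at 0.15 ± 0.02 and 0.066 ± 0.02 in these comparisons. Its probes are placed on chromosome 1, so it could not be placed in the hairpin of miR-29b*. miR-135a* (chromosome 9) was detected in early arousal with 14.4 units in 1 of 4 probes, and had 2.68 in late torpor and 3.55 in post-reproduction. This gives at least 1.67-fold and 1.51-fold, with 1.41 and 1.17 as the lowest bounds over the scalings. Each bound in this paragraph uses a probe picked for its detection on the brighter array. Its direction is tied to that choice and is no separate result, and spot error is not included. miR-7a* had 8.38, 11.5 and 11.1 units and was not detected in early arousal, and miR-191* had 6.79, 8.99 and 7.26 and was detected in late torpor, with no bound above 1 under every scaling for either. The other arm miR-7a was measured in 1 probe. Against post-reproduction it was at 0.33 ± 0.05 in late torpor and 0.40 ± 0.05 in early arousal, the array where the units of miR-7a* were lowest. miR-7a* was not measured, so no star minus arm is given. miR-135a and miR-191, the entries named as other arms of 2 of these, were detected on no array. The probes of miR-135a are placed on chromosome 10, so it could not be placed in the hairpin of miR-135a*.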

How the data were processed

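Liver RNA pools of 3 stages were each hybridised to 1 one-colour Agilent array (mouse design, probe positions in mm9, per the file headers). Images were quantified with Agilent Feature Extraction, version 9.5.3.1, per the submitters' processing notes. The intensity deposited for each spot had a spatial trend removed and no scaling between arrays, per the file headers, and the detection and outlier flags are other deposited values of the same program. At all 12493 spots of each array the intensity in the authors' deposited series table was identical, linear and uncentred (medians 1.05, 1.15 and 1.13 for early arousal, late torpor and post-reproduction).

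Star entries had 2000 spots per array, of which 58, 32 and 42 with outlier flags were left out. No spot was saturated. Spots at or below 0 (51.5%, 50.7% and 47.9% of the kept star spots) were set to the lowest spot well above background (10.1, 8.49 and 10.7 units). Log2 values were averaged over spots, then over the probes detected on all 3 arrays, after scaling to the 75th percentile of those probes (350.4, 349.1 and 398 units). The other arm is the entry of the same name without the asterisk (89 entries) or also without the locus number (10), and 1 entry had none. Positions written high to low were read as the plus strand. No test across arrays was made. The steps were tested on simulated data. Named were all star entries detected on any array. Members, marker lists and settings were chosen with earlier results of these data known. R 4.3.3 with limma 3.58.1 (normexp) and Python 3.11.15 were used. The alternatives were other scalings, background correction, detection, probe summaries and the program's own totals. Mature sequences were not used here.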

Additional observations from a re-analysis of the deposited data

How the results depend on the processing

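With 1 array per stage, nothing separates stage from pool or position on the slide. Signal over background limits the star values: 87 of 100 entries had no detected probe. None of the 9 measured star entries passed the size rule under any alternative run. With 1 spot well above background counted as detection, 18 star entries counted in early arousal, 27 entries in late torpor and 18 entries in post-reproduction, 1 star entry (miR-29b*, 1.11) passed the rule in late torpor against post-reproduction, and 1 pair (miR-29b* and miR-29b, 1.17) was apart by 1 or more. The program's own flag called 17 star entries in early arousal, and the viral entry as a floor left 7 in early arousal and 7 in late torpor. That floor is the level of 1 viral entry and sets no background for the star entries, so these 7 are a count above that level only.

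The median difference of the measured star entries moved with the scaling. Between late torpor and post-reproduction (-0.034) it was -0.16 with all probes in the scaling, -0.22 without scaling, -0.16 after quantile normalization, 0.082 with normexp, -0.27 with strict detection, -0.13 with loose detection and -0.43 with the unsubstituted all-probe scaling. Between early arousal and post-reproduction (0.020) it was -0.35 with all probes, -0.17 without scaling, -0.084 after quantile normalization, -0.25 with strict detection, -0.21 with loose detection and -0.16 with the unsubstituted form. Between early arousal and late torpor (-0.092) it was -0.34 with all probes, 0.028 after quantile normalization and 0.12 with the unsubstituted form. The median of all measured miRNAs moved too, to -0.31 with all probes in early arousal against post-reproduction and to -0.26 with the unsubstituted form in late torpor against post-reproduction. The distance of the star median from it was -0.17, -0.043 and 0.0024 and did not move with scalings that shift whole arrays. The median star minus other arm moved once, to 0.13 with normexp in early arousal against post-reproduction. The unsubstituted scaling, the program's own summary and the viral floor were chosen after the data were examined. No paired analysis was possible because each stage has 1 array.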

Other observations

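The scanning program's own detection flag, which works on the sum of an entry's probes, called more star entries than the majority of spots did: 17%, 18% and 14% of the 100 (early arousal, late torpor, post-reproduction), beside 31.7%, 32.6% and 29.3% of all mouse entries. The entries it added were let-7b*, let-7f*, miR-24-1*, miR-29a*, miR-30c-2*, miR-130b*, miR-148a* and miR-193*. Of these, miR-30c-2* was called on all 3 arrays, with totals of 7.21 ± 2.13 (the program's error), 5.43 ± 1.79 and 7.89 ± 2.27 in that order. let-7b* was called on 1 array, and its totals were 3.88 ± 1.45, 8.11 ± 1.29 and 6.04 ± 1.56. The totals of miR-31* on this scale were 71.3 ± 5.64, 76.8 ± 5.96 and 48.2 ± 4.18.

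Summed over all their spots, the 100 star entries made up 0.406%, 0.365% and 0.413% of the deposited intensity of all miRNA spots in the same order.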
